A study of Mus musculus with 16 samples.

Results

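The mitochondrial ribosomal proteins are the nuclear-encoded proteins of the ribosome that works inside mitochondria, and here they were taken as every array probe whose gene symbol is Mrpl or Mrps followed by a digit. Mrpl genes are named for the large subunit of that ribosome and Mrps genes for its small subunit. This rule found 132 probes for 76 genes (48 Mrpl and 28 Mrps) of 19057 annotated genes on the array. Of these, 73 genes (46 Mrpl and 27 Mrps) were bright enough to test, and 71 were detected on all 16 arrays. Mrpl19, Mrpl32 and Mrps14 were detected on no array and were not tested, while Mrpl39 was detected on 7 arrays and Mrpl57 on 4.

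RNA from mouse embryonic stem (ES) cells, which are pluripotent cells of the early embryo kept in culture, was hybridized to Illumina Mouse WG-6 v2 bead arrays. The groups were Prdm4 null cells (4 arrays), wild-type cells that in addition expressed Prdm4 joined to the fluorescent protein EGFP (6 arrays) and unmodified wild-type cells, Prdm4+/+ (6 arrays), all of the 129/Sv strain. Prdm4 encodes a zinc finger protein of the PR/SET domain family. By the study's account the null allele lacks, on both chromosomes, exons for the end of the PR/SET domain and for several of the zinc fingers. This allele was made by gene targeting in CCE ES cells, whereas the EGFP fusion came from a stably inserted plasmid with the widely active pCAGGS promoter. The arrays of a group are labelled as separate clones, so a difference between groups also holds what differs between clones, and the null clones descend from a few once-targeted clones, of which the sources used here do not say which were arrayed.

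A mitochondrial ribosome makes only the few proteins that mitochondrial DNA encodes, all of them subunits of the respiratory chain and ATP synthase. Its ribosomal RNAs come from mitochondrial DNA, but its proteins are made in the cytosol from nuclear genes and imported. Part of them are relatives of bacterial ribosomal proteins and part exist in mitochondria only. The small subunit reads the messenger RNA and the large subunit joins the amino acids. ES cells rely heavily on glycolysis, and mitochondrial output is known to increase as they differentiate.

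The targeted gene had 2 probes. On the log2 scale, the brighter Prdm4 probe read 9.72, 9.56, 9.69 and 9.69 on the Prdm4 null arrays. It read 10.07 to 10.34 (median 10.26) on the Prdm4-EGFP arrays and 10.17 to 10.40 (median 10.31) in wild-type cells. Its log2 fold change in Prdm4 null against wild-type cells was -0.63 (limma, adjusted p = 6.04e-07). The dimmer probe was detected on no null array and was at least 3.19-fold lower in Prdm4 null than in wild-type cells. This dimmer probe passed the detection filter through the other groups only. Prdm4-EGFP cells did not differ from wild type at the brighter probe (log2 fold change -0.05, adjusted p = 0.717). Where these probes lie relative to the deleted exons and the transgene was not determined here. All 8 ES cell markers tested, among them Pou5f1 and Zfp42, were detected on every array, with Nanog (log2 fold change -0.85) and Esrrb (-0.33) lower and Sox2 (0.29) and Utf1 (0.28) higher in Prdm4 null than in wild-type cells, and 9 of 10 feeder fibroblast markers were detected on none. The other fibroblast marker, Thy1, set a summed level of 364 to 409 in Prdm4 null, 681 to 880 in Prdm4-EGFP and 691 to 886 in wild-type cells. The summed signal of 6 trophoblast markers was 2130 to 2580 in Prdm4 null, 793 to 1260 in Prdm4-EGFP and 782 to 1300 in wild-type cells, while Cdx2, Hand1 and Elf5, which define that lineage, were detected on no array. All 3 tested trophoblast markers were higher in Prdm4 null than in wild-type cells (median log2 fold change 1.05), beside 22.9% of all tested genes. The 8 endoderm markers summed to 2790 to 2900 in Prdm4 null, 2180 to 3080 in Prdm4-EGFP and 2090 to 2640 in wild-type cells, with Gata4, Sox17 and Foxa2 detected on no array. Of the 5 tested endoderm markers, 4 were higher in Prdm4 null than in wild-type cells and 0 lower (80% and 0%, median log2 fold change 0.91). The part of these shifts in the results for the ribosomal genes was not tested, and in RNA from whole cultures fewer cells of a type and less RNA per cell cannot be told apart. Between 13894 and 14905 of 45281 probes were detected per array, and the number of arrays limits the precision.

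Prdm4 null cells had lower levels of many large subunit mRNAs than wild-type cells and higher levels of a few mRNAs of both subunits. Of the 73 genes, 8 were higher and 24 lower in Prdm4 null cells (limma, adjusted p under 0.05), or 11% and 32.9%. Over all 8707 tested genes the shares were 22.9% higher and 21.2% lower. The median log2 fold change of the 73 genes was -0.10, against 0.018 over all tested genes. Most changes were small. Mrps9 and Mrpl30 alone passed 1.5-fold (2.74% of the members), whereas 13.5% of all tested genes did. Within a group the members varied little, with a median SD of 0.10 on the log2 scale against 0.14 for all tested genes.

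**Figure D1:**
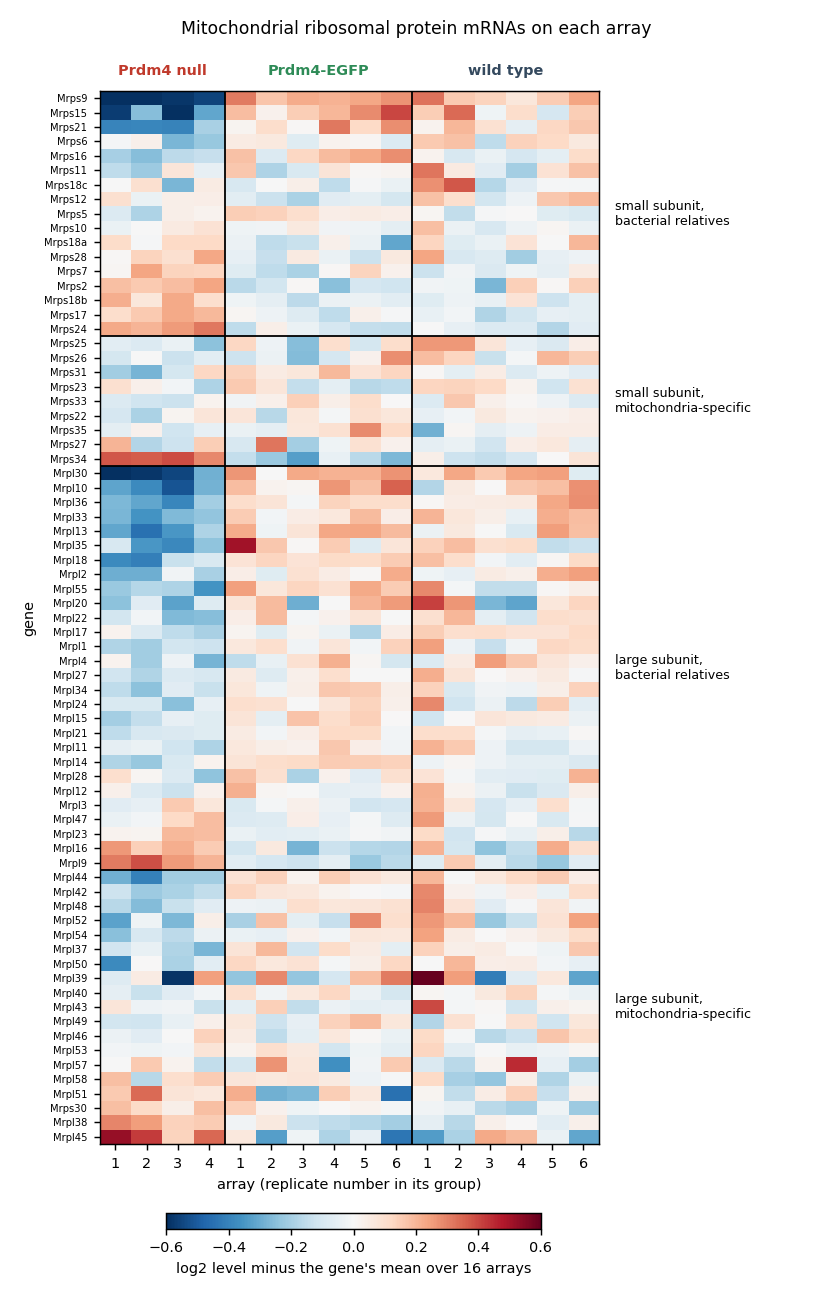
Log2 level of each of the 73 tested genes (rows, grouped by subunit and sorted by their change in Prdm4 null cells) on each of the 16 arrays (columns, by group), as the difference from the gene's mean over all arrays. Blue cells in the 4 Prdm4 null columns gather in the rows of the large subunit proteins with bacterial relatives. There 14 of 28 genes were lower (50%, beside 21.2% of all tested genes). Part of these calls were lost without wild-type arrays 1, 5 and 6. Red cells mark rises such as Mrps34 and Mrpl45.

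The counts were also taken by subunit and origin. Over all tested genes 21.2% were lower and 22.9% higher in Prdm4 null cells. Of the 28 tested large subunit proteins with bacterial relatives, 14 were lower and 1 was higher (50% and 3.57%), with a median log2 fold change of -0.19. Of these 14, Mrpl1, Mrpl2, Mrpl17, Mrpl22, Mrpl27, Mrpl34 and Mrpl55 lost their call without wild-type arrays 1, 5 and 6. In that fit 19.2% of all tested genes were lower. With array numbers 1 and 2 only, Mrpl18, Mrpl30 and Mrpl33 alone kept it, where 10.2% of all tested genes were lower. Calls gained in those fits are not counted here. Of the 19 large subunit proteins found in mitochondria only, 6 were lower and 3 higher (31.6% and 15.8%, median -0.08). Of the 17 counted as small subunit proteins with bacterial relatives, 4 were lower and 3 higher. These shares, 23.5% and 17.6%, were near those of all tested genes, and the median was close to 0 (-0.0008). The relatives of bacterial S18 (Mrps18a, Mrps18b and Mrps18c) were placed in that class by sequence and not by position in the ribosome. Of the 9 small subunit proteins found in mitochondria only, none was lower and 1, Mrps34, was higher (11.1%, median -0.08). Whether these classes differed from each other was not tested, and the classes were set with earlier results of these data known.

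**Figure D2:**
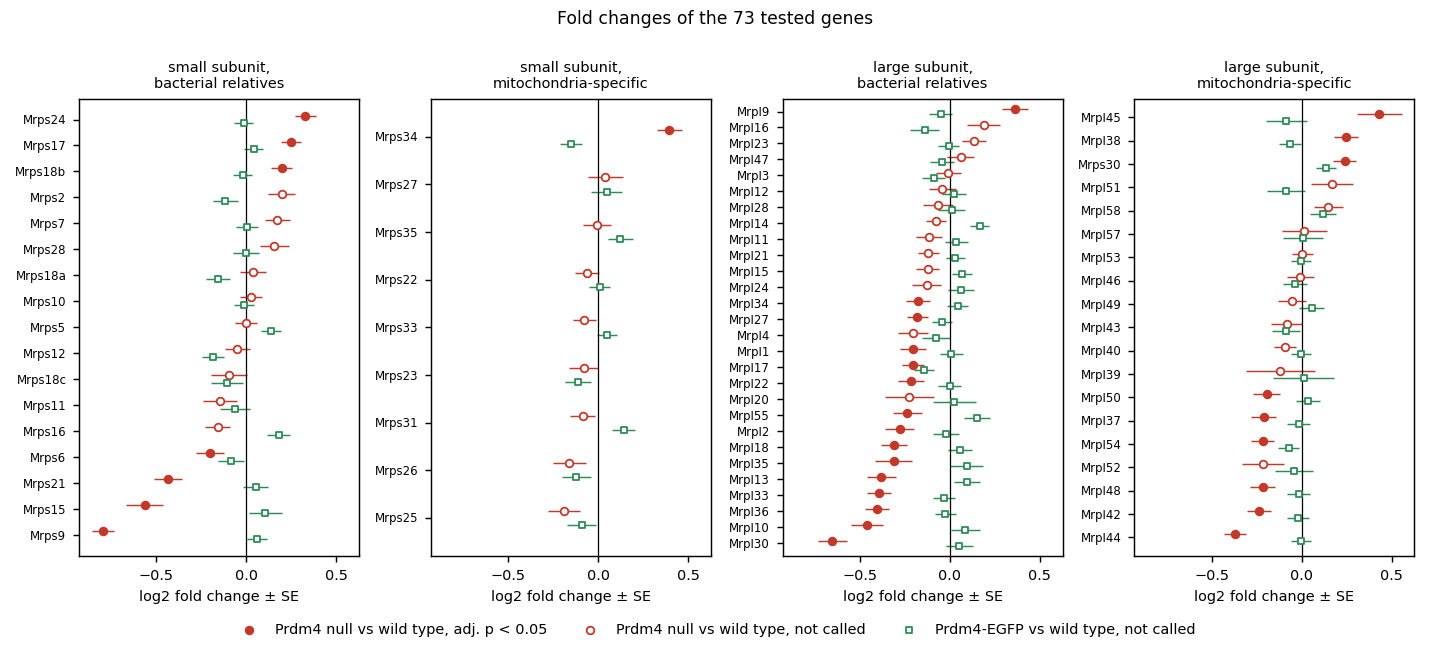
Log2 fold change with its SE for each tested gene in Prdm4 null against wild-type cells (red circles, filled where the adjusted p is under 0.05) and in Prdm4-EGFP against wild-type cells (green squares), in 4 panels by subunit and origin. The red points of the large subunit proteins with bacterial relatives lie mostly left of 0, and no green point passes the test.

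The largest decrease was that of Mrps9, a relative of bacterial S9, which in bacteria touches the tRNA in the peptidyl site. Its log2 level was 10.37, 10.40, 10.47 and 10.51 on the 4 Prdm4 null arrays, 11.22 to 11.37 (median 11.29) on the Prdm4-EGFP arrays and 11.13 to 11.38 (median 11.21) on the wild-type arrays. Every null array lay below every other array, and the level in Prdm4 null cells was 0.575-fold that of wild-type cells (log2 fold change -0.80, SE 0.06, adjusted p = 1.51e-08). Mrpl30, a relative of bacterial L30, followed with 10.36, 10.39, 10.42 and 10.69 in Prdm4 null cells, 10.97 to 11.24 (median 11.19) in Prdm4-EGFP cells and 10.90 to 11.22 (median 11.17) in wild-type cells. Null array 4 was the highest of its group, yet the groups did not overlap (log2 fold change -0.65, SE 0.08, adjusted p = 6.18e-06).

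Both genes lie on chromosome 1, where 289 of 426 tested genes were lower in Prdm4 null cells, with a median log2 fold change of -0.40. Mrpl44 and Mrpl15 are on chromosome 1 too. Mrpl44, a large subunit protein with an RNase III-like fold, read 9.81, 9.69, 9.89 and 9.89 in Prdm4 null, 10.12 to 10.25 (median 10.19) in Prdm4-EGFP and 10.10 to 10.30 (median 10.19) in wild-type cells. Its groups did not overlap either (log2 fold change -0.37, adjusted p = 0.000104). The 4 tested members of this chromosome had a median of -0.51, and 3 of them were lower. Among the 69 members on other chromosomes 8 were higher and 21 lower (median -0.09), while 23.8% of all tested genes off chromosome 1 were higher and 18.8% lower (median 0.03). The 3 tested members on chromosome 14, Mrpl52, Mrpl57 and Mrps16, were not called against wild type (-0.22, 0.01 and -0.16), nor was Mrpl39 (-0.12), which like Mrpl57 was near background. The part of the chromosome 1 shift in the values of these 4 genes was not tested, and the lower count of members was largely made of genes on other chromosomes.

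The largest decreases off chromosome 1 were Mrps15, Mrpl10 and Mrps21. Mrps15 is a relative of bacterial S15, which binds the ribosomal RNA early in assembly of the small subunit. It read 6.82, 7.14, 6.67 and 7.08 in Prdm4 null cells, 7.42 to 7.79 (median 7.58) in Prdm4-EGFP cells and 7.29 to 7.73 (median 7.52) in wild-type cells (log2 fold change against wild type -0.57, SE 0.10, adjusted p = 0.000216). The null arrays spread more than those of the other groups (SD 0.22 in Prdm4 null, 0.13 in Prdm4-EGFP and 0.15 in wild-type cells), but none reached the lowest wild-type array. Mrpl10 forms the base of the flexible stalk that recruits the GTPase factors of translation. Its levels of 10.97, 10.91, 10.77 and 11.01 in Prdm4 null cells lay below the 11.30 to 11.64 (median 11.47) of Prdm4-EGFP cells and the 11.12 to 11.57 (median 11.40) of wild-type cells (log2 fold change against wild type -0.46, adjusted p = 0.0005). Its other probe was not called (-0.12, adjusted p = 0.144). Mrpl12, its partner in the stalk, was not called (log2 fold change -0.04, adjusted p = 0.697). Mrps21, a small protein related to bacterial S21, read 9.78, 9.78, 9.77 and 9.98 in Prdm4 null cells, 10.18 to 10.49 (median 10.29) in Prdm4-EGFP cells and 10.13 to 10.37 (median 10.29) in wild-type cells, with a log2 fold change of -0.44 (adjusted p = 0.000197).

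Mrpl36, Mrpl33, Mrpl13 and Mrpl35 completed the 10 largest decreases, and all are large subunit proteins with bacterial relatives. The zinc-binding protein Mrpl36 was 11.21, 11.18, 11.09 and 11.28 in Prdm4 null, 11.48 to 11.62 (median 11.59) in Prdm4-EGFP and 11.49 to 11.76 (median 11.54) in wild-type cells (log2 fold change -0.41, adjusted p = 9.8e-05). Mrpl33 was 11.39, 11.31, 11.40 and 11.43 in Prdm4 null, 11.65 to 11.86 (median 11.72) in Prdm4-EGFP and 11.62 to 11.88 (median 11.79) in wild-type cells, a log2 fold change of -0.39 (adjusted p = 0.000126). A second Mrpl33 probe was lower as well (-0.32). Mrpl13, whose bacterial relative L13 binds rRNA early in assembly, was 11.24, 11.10, 11.20 and 11.36 in Prdm4 null, 11.52 to 11.79 (median 11.75) in Prdm4-EGFP and 11.46 to 11.80 (median 11.58) in wild-type cells (log2 fold change -0.38, adjusted p = 0.000929). In these 3 genes no null array reached the other groups. Mrpl35 overlapped by 1 null array, with 7.83, 7.57, 7.53 and 7.68 in Prdm4 null against 7.77 to 8.11 (median 8.03) in wild-type cells (log2 fold change -0.31, adjusted p = 0.0215), and its call was lost without null array 2 (adjusted p = 0.0642) or null array 3 (adjusted p = 0.0736).

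The other 14 genes called lower had log2 fold changes between -0.31 (Mrpl18) and -0.18 (Mrpl34). All but Mrps6 encode large subunit proteins, with Mrpl1, Mrpl2, Mrpl17, Mrpl18, Mrpl22, Mrpl27, Mrpl34 and Mrpl55 among those that have bacterial relatives and Mrpl37, Mrpl42, Mrpl48, Mrpl50 and Mrpl54 among those found in mitochondria only. Counted over all 73 genes, the Prdm4 null arrays lay wholly below the wild-type arrays for 19 genes and wholly above for 7, while over all tested genes this held for 15.5% and 16.9%. Without wild-type arrays 1, 5 and 6, 14 members were called lower in place of 24, or 19.2%. An earlier analysis of these data had seen these arrays apart from the others. The share of all tested genes called lower in that fit was 19.2% as well, so the members' lower count did not exceed the background there. The median log2 fold change of the members in that smaller fit was -0.091, against 0.017 over all tested genes. In it 9 of 73 members were higher, beside 20.2% of all tested genes. When each array was left out in turn the lower count stayed between 19 and 25, and 13 of the 24 genes kept their call each time. The exceptions were Mrpl35, Mrpl1, Mrpl22, Mrpl27, Mrpl34, Mrpl37, Mrpl48, Mrpl50, Mrpl54, Mrpl55 and Mrps6, each of which lost it without at least 1 of the null arrays.

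**Figure D3:**
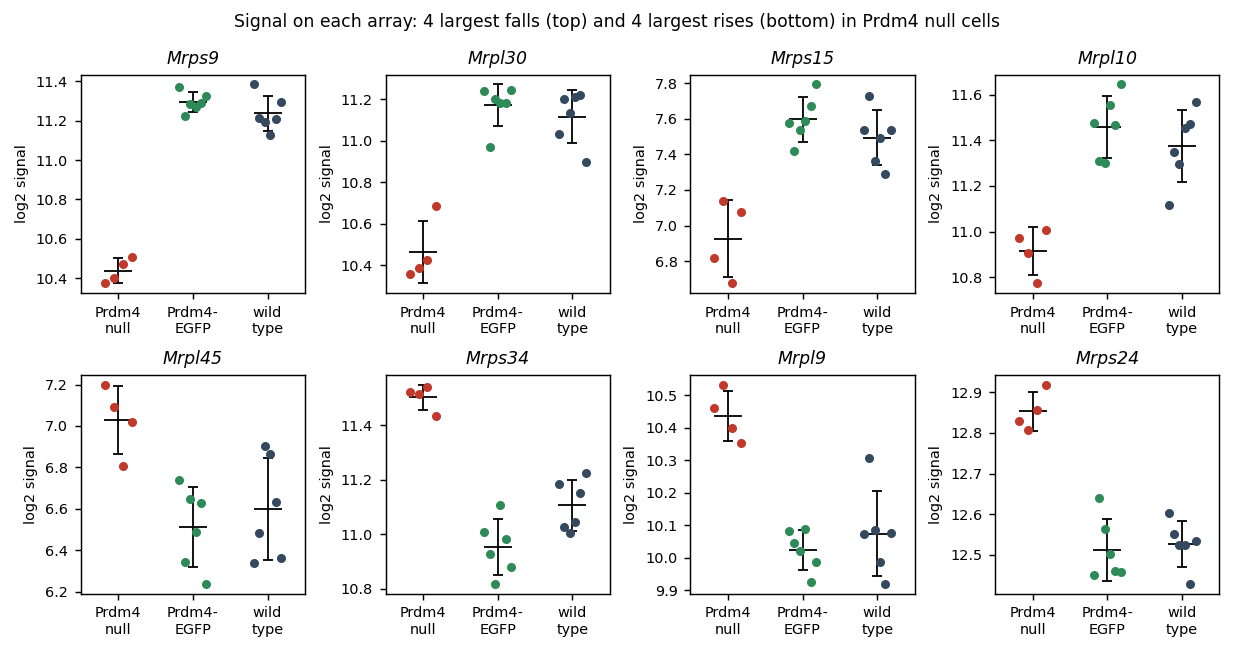
Log2 signal on every array for the 4 genes with the largest decreases (top row) and the 4 with the largest increases (bottom row) in Prdm4 null cells. Points are arrays, bars show the mean and SD, and each panel has its own axis range. For Mrps9, Mrpl30, Mrps15 and Mrpl10 all 4 null arrays lie below the wild-type arrays, and for Mrps34, Mrpl9 and Mrps24 all lie above them, whereas Mrpl45 overlaps.

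Among the 8 genes that were higher, 4 encode small subunit proteins by position as well as name. Mrps34, a mitochondria-specific small subunit protein that in humans is mutated in Leigh syndrome, read 11.52, 11.51, 11.54 and 11.44 in Prdm4 null cells, 10.82 to 11.11 (median 10.96) in Prdm4-EGFP cells and 11.01 to 11.23 (median 11.10) in wild-type cells. The groups were well apart, and the level in Prdm4 null cells was 1.32-fold that of wild-type cells (log2 fold change 0.40, SE 0.07, adjusted p = 0.000143). Mrps24, the counterpart of bacterial S3 at the entry of the mRNA channel, was 12.83, 12.81, 12.86 and 12.92 in Prdm4 null, 12.45 to 12.64 (median 12.48) in Prdm4-EGFP and 12.43 to 12.60 (median 12.53) in wild-type cells (log2 fold change 0.33, adjusted p = 0.000229). Mrps17, related to the rRNA-binding protein S17, was 11.30, 11.35, 11.42 and 11.38 in Prdm4 null, 11.04 to 11.22 (median 11.17) in Prdm4-EGFP and 11.01 to 11.17 (median 11.14) in wild-type cells (log2 fold change 0.25, adjusted p = 0.00229). Both were higher on every null array. Mrps18b, 1 of 3 mitochondrial relatives of bacterial S18, had a smaller increase (log2 fold change 0.20, adjusted p = 0.0132) with overlapping groups, and its call was lost without null array 3 (adjusted p = 0.0524) or without wild-type arrays 1, 5 and 6 (0.15, adjusted p = 0.0969). Its relatives Mrps18a and Mrps18c were not called, at 0.04 and -0.10.

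The other 4 rises were large subunit proteins, since Mrps30 keeps a small subunit name but was found in the large subunit in structures of the mammalian ribosome. Mrpl45, which lies at the exit of the peptide tunnel and holds the ribosome to the inner membrane, had the largest increase, 1.35-fold, with levels of 7.20, 7.09, 6.81 and 7.02 in Prdm4 null, 6.24 to 6.74 (median 6.56) in Prdm4-EGFP and 6.34 to 6.90 (median 6.56) in wild-type cells. The wild-type arrays were wide apart and overlapped the null arrays (log2 fold change 0.43, SE 0.12, adjusted p = 0.00994), and without wild-type arrays 1, 5 and 6 the call was lost (0.28, adjusted p = 0.118). Mrpl9, a relative of bacterial L9, was 10.46, 10.53, 10.40 and 10.35 in Prdm4 null, 9.93 to 10.09 (median 10.03) in Prdm4-EGFP and 9.92 to 10.31 (median 10.07) in wild-type cells (log2 fold change 0.36, adjusted p = 0.000546). Mrpl38 and Mrps30 had log2 fold changes of 0.25 (adjusted p = 0.00684) and 0.24 (adjusted p = 0.00535). More rises than falls lost their call with the scaling. In the deposited table, which the authors had normalized, 3 of the 8 rises (Mrpl9, Mrpl45 and Mrps34) and all 24 falls kept their call, and the members counted 3 higher and 38 lower while 16.1% of all genes were higher and 27.2% lower.

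Several genes had more than 1 probe, and these did not always move together. Of 25 members with 2 or more tested probes, 17 had the same call at every probe in Prdm4 null against wild-type cells. Mrpl38 was called in opposite directions at its probes (0.25 at the brighter and -0.26 at the dimmer), and over their mean it was not called (log2 fold change -0.0075, adjusted p = 0.941). Mrpl15, a relative of bacterial L15, had 7 tested probes with log2 fold changes between -0.68 and 0.71, of which 2 were called higher and 2 lower. Its brightest probe was not called (11.86, 11.92, 12.01 and 11.99 in Prdm4 null, 12.004 to 12.24 with median 12.16 in Prdm4-EGFP and 11.94 to 12.14 with median 12.09 in wild-type cells). Which transcripts or other genes these probes detect was not determined here. The agreeing probes included those of Mrpl1 (-0.21 and -0.54) and Mrpl13 (-0.38 and -0.59), all called lower.

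Promoter sequences from RefSeq (build GRCm38.p6, 250 bases before to 50 bases after each start) were matched to 67 of the 76 genes. They were searched on both strands for short letters bound by known activators of nuclear genes for mitochondrial proteins: the ETS letters CCGGAAG that GABP recognizes, the NRF1 letters GCATGCG and the YY1 letters AAGATGG. The ETS letters stood in the promoters of 26 members (38.8%), against 21.9% of 7117 tested genes in the table and 8.86% of all its promoters. The NRF1 letters stood in 8 members (11.9%, against 7.92% of tested genes and 3.58% of all promoters) and the YY1 letters in 13 (19.4%, against 9.25% and 6.34%). A match describes the letters and not a bound site. At least 1 of these stood in 3 of the 6 higher, 13 of the 22 lower and 21 of the 37 uncalled members that had a promoter entry. The letters CTNGAAAC, a part of the sequence that the study describes as bound by Prdm4, stood in 1 member, Mrpl16 (1.49%, against 4.51% of tested genes and 3.83% of all promoters).

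The following stretches, each on the strand of its gene and read 5′ to 3′, are shown for genes described here by their levels, first those with a match and then Mrps9 and Mrps15, the strongest decreases on and off chromosome 1, which hold none of the letters in the whole window. Capitals mark the matched letters on either strand. In Mrpl33 the NRF1 and ETS letters stand 1 base apart, and in Mrpl10 and Mrpl9 the NRF1 letters of both strands overlap. The stretches are Mrps21 at chr3:95871485-95871544 on the minus strand, Mrpl33 at chr5:31613918-31613977, Mrpl10 at chr11:97041421-97041480, Mrpl36 at chr13:73330954-73331013, Mrpl9 at chr3:94443283-94443342, Mrpl16 at chr19:11770218-11770277, Mrps9 at chr1:42851173-42851232 and Mrps15 at chr4:126046868-126046927, the last 7 on the plus strand.
Mrps21: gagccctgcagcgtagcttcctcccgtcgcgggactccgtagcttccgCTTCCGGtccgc
Mrpl33: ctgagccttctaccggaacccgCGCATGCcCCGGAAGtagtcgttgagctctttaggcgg
Mrpl10: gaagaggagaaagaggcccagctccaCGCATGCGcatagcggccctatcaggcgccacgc
Mrpl36: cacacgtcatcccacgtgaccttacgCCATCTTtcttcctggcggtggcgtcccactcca
Mrpl9: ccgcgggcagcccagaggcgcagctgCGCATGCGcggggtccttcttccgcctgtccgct
Mrpl16: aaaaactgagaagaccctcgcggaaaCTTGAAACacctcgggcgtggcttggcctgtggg
Mrps9: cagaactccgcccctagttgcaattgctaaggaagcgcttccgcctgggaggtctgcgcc
Mrps15: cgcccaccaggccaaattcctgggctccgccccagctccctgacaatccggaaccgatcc

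Prdm4-EGFP cells did not differ from wild-type cells in any mitochondrial ribosomal protein mRNA by this test. None of the 73 genes was called higher or lower, while 1.9% of all tested genes were higher and 2.19% lower. The smallest adjusted p was 0.0848 (Mrpl14), and 9 of the 73 genes had an unadjusted p under 0.05, against 19.2% of all tested genes. The log2 fold changes ran from -0.19 (Mrps12) to 0.18 (Mrps16), with a median of -0.0021 against 0.0024 for all tested genes. The 95% intervals of all members lay between -0.35 and 0.37.

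A few members were nonetheless apart on every array. Mrpl14, a large subunit protein at the interface of the subunits, was 10.005 to 10.08 (median 10.06) in Prdm4-EGFP and 9.84 to 9.94 (median 9.88) in wild-type cells. Mrps5, at the mRNA entry of the small subunit, was 9.60 to 9.71 (median 9.64) in Prdm4-EGFP cells and so above the 9.42 to 9.57 (median 9.52) of wild-type cells, and the mitochondria-specific Mrps31 was narrowly above, with 11.871 to 12.01 (median 11.93) in Prdm4-EGFP and 11.74 to 11.867 (median 11.78) in wild-type cells. Mrpl17 lay below, with 12.09 to 12.31 (median 12.26) in Prdm4-EGFP and 12.35 to 12.42 (median 12.37) in wild-type cells. These 3 genes above and 1 below compare with 1.19% and 1.29% of all tested genes, and none passed the adjusted test. Without Prdm4-EGFP array 2, Mrps16 was called higher (log2 fold change 0.23, adjusted p = 0.0412), and without wild-type array 3, Mrps12 was called lower (-0.22, adjusted p = 0.0379).

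Set against Prdm4-EGFP cells, Prdm4 null cells again had more members lower than higher, and this comparison shares the null arrays with the one against wild type. Of the 73 genes 10 were higher and 25 lower, against 25.2% and 23.6% of all tested genes, with a median log2 fold change of -0.12 against 0.011. Mrps9 again had the largest decrease (-0.86, adjusted p = 5.08e-09) and Mrps34 the largest increase (0.55, adjusted p = 3.62e-06). Called in this comparison but not against wild type were Mrpl16, Mrps2 and Mrps18a among the rises, although Mrps2 was at the threshold against wild type. Mrpl16, a neighbour of the peptidyl transferase centre whose promoter holds the CTNGAAAC letters, read 9.23, 9.11, 9.19 and 9.12 in Prdm4 null and 8.69 to 9.03 (median 8.82) in Prdm4-EGFP cells (log2 fold change 0.33, adjusted p = 0.00705), and the wild-type arrays spanned 8.73 to 9.19 (median 8.96). Without wild-type arrays 1, 5 and 6 it was higher than wild type as well (0.36, adjusted p = 0.00235). Mrps2, related to bacterial S2, was 8.93, 8.90, 8.93 and 8.98 in Prdm4 null and 8.49 to 8.75 (median 8.63) in Prdm4-EGFP cells (log2 fold change 0.31, adjusted p = 0.00282). Its null arrays also lay above all wild-type arrays, which spanned 8.47 to 8.89 (median 8.74), with a log2 fold change of 0.20 (adjusted p = 0.05), and several alternatives called it higher, among them the fits without wild-type array 4 (0.22, adjusted p = 0.0292) or 6 (0.22, adjusted p = 0.0297). Among the falls, Mrps16 was 10.41, 10.35, 10.45 and 10.47 in Prdm4 null and 10.53 to 10.89 (median 10.79) in Prdm4-EGFP cells (log2 fold change -0.34, adjusted p = 0.000762).

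Other gene lists were counted in Prdm4 null against wild-type cells in the same way, beside the 22.9% of all tested genes that were higher and the 21.2% that were lower. Of 55 tested cytosolic ribosomal proteins, which build the ribosome outside mitochondria, 2 were higher and 5 lower (3.64% and 9.09%), with a median log2 fold change of 0.0031. Of 71 subunits of oxidative phosphorylation, the respiratory chain and ATP synthase, 5 were higher and 20 lower (7.04% and 28.2%), with a median of -0.13. The mitochondrial ribosomal proteins, at 11% and 32.9% with a median of -0.10, had shares like those of oxidative phosphorylation, and the lists were not tested against each other. In Prdm4-EGFP against wild-type cells 0 of the 71 and 1 of the 55 genes were called (0% and 1.82%), beside 4.09% of all tested genes.

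**Figure D4:**
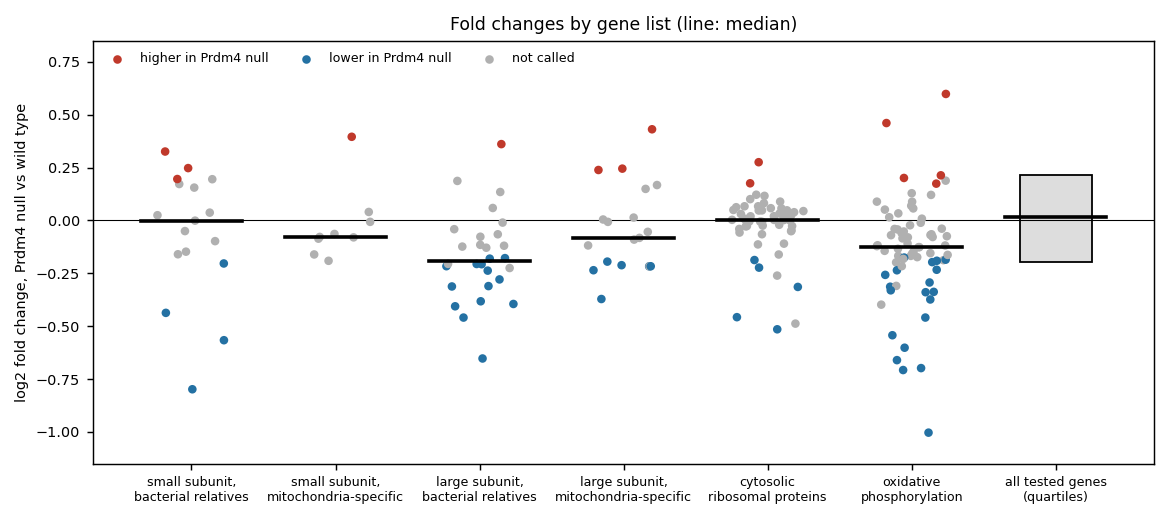
Log2 fold change of each gene in Prdm4 null against wild-type cells for the mitochondrial ribosomal proteins by subunit and origin, the cytosolic ribosomal proteins and the subunits of oxidative phosphorylation (points, red higher, blue lower, grey not called), with the list median as a line and the quartiles of all tested genes as a box. The medians are -0.19 for large subunit proteins with bacterial relatives, 0.0031 for cytosolic ribosomal proteins and -0.13 for oxidative phosphorylation.

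Of the 5 tested ribosomal proteins that carry other names, Dap3 was lower in Prdm4 null cells (20%, near the 21.2% of all tested genes). The other 4 (Ptcd3, Chchd1, Gadd45gip1 and Oxa1l, the last an insertase bound to the ribosome) were not called. Dap3, a GTP-binding protein of the small subunit, read 12.15, 12.14, 12.09 and 12.28 in Prdm4 null, 12.36 to 12.66 (median 12.47) in Prdm4-EGFP and 12.43 to 12.51 (median 12.45) in wild-type cells, with no overlap (log2 fold change against wild type -0.30, adjusted p = 0.00117).

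Of 11 tested factors that drive mitochondrial translation, 4 were lower in Prdm4 null cells (Mtif3, Gfm2, Mrrf and Mtrf1) and 1 was higher (Guf1), or 36.4% and 9.09%, beside 21.2% and 22.9% of all tested genes. Mtif3, an initiation factor, read 8.53, 8.41, 8.47 and 8.38 in Prdm4 null, 8.79 to 9.07 (median 8.98) in Prdm4-EGFP and 8.83 to 9.17 (median 9.01) in wild-type cells, a log2 fold change of -0.54 (adjusted p = 1.56e-05). Mtrf1, of the release factor family, changed most, with 8.05, 7.92, 8.19 and 8.36 in Prdm4 null, 9.57 to 9.81 (median 9.75) in Prdm4-EGFP and 8.92 to 9.56 (median 9.25) in wild-type cells. It was 0.466-fold the wild-type level in Prdm4 null cells (adjusted p = 2.58e-06) and 1.41-fold in Prdm4-EGFP cells (adjusted p = 0.0242). The wild-type arrays split, with 9.03, 8.92 and 8.92 on arrays 1, 5 and 6 and 9.46, 9.52 and 9.56 on arrays 2, 3 and 4, and the call in Prdm4-EGFP cells was lost without arrays 1, 5 and 6 together (log2 fold change 0.22, adjusted p = 0.269), without wild-type array 1, 5 or 6 alone (adjusted p = 0.0501, 0.0605 and 0.0585) and without Prdm4-EGFP array 5 (adjusted p = 0.0551).

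Gfm2, a factor that splits the ribosome after termination together with Mrrf, had a log2 fold change of -0.29 (adjusted p = 0.0209) that lost its call without null array 1 or 2 (adjusted p = 0.0605 and 0.0709). Guf1, a GTPase related to bacterial LepA, was barely past the threshold (0.33, adjusted p = 0.0443), and leaving out null array 1, 2 or 3, Prdm4-EGFP array 1, 2, 4 or 5, or wild-type array 2, 3, 4 or 6 gave an adjusted p between 0.0501 and 0.15. The elongation factors Tufm, Tsfm and Gfm1 were not called, with log2 fold changes of 0.07, -0.15 and -0.11.

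Among 14 tested mitochondrial aminoacyl-tRNA synthetases, which charge the tRNAs, 6 were lower in Prdm4 null cells (42.9%, beside 21.2% of all tested genes) and none higher. Wars2, for tryptophan, was not detected on any null array and was at least 1.5-fold lower than in wild-type cells. It read 5.98 to 6.42 (median 6.06) in wild-type and 5.95 to 6.43 (median 6.14) in Prdm4-EGFP cells. Wars2 passed the detection filter through these groups only, and its call rests on null values below background. Mars2 for methionine (log2 fold change -0.64, adjusted p = 4.55e-05) and Iars2 for isoleucine (-0.57, adjusted p = 0.000177) lie on chromosome 1. Pars2, Rars2 and Kars had log2 fold changes of -0.25, -0.27 and -0.34, and Kars also serves the cytosol.

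Of 20 tested genes for assembly of the ribosome and handling of its RNA, 5 were lower (25%, close to the 21.2% of all tested genes) and none higher. The clearest was Mterf4, which brings a methyltransferase to the large subunit rRNA and lies on chromosome 1, with 10.22, 10.30, 10.34 and 10.45 in Prdm4 null, 10.68 to 11.03 (median 10.89) in Prdm4-EGFP and 10.61 to 10.85 (median 10.78) in wild-type cells (log2 fold change -0.44, adjusted p = 0.000113). Rbfa, a small subunit maturation factor, followed without overlap (-0.35, adjusted p = 0.00459), but its call was lost without wild-type arrays 1, 5 and 6 (-0.19, adjusted p = 0.0792). Tfb1m, which methylates the small subunit rRNA, had a log2 fold change of -0.39 (adjusted p = 0.0182) that was lost without null array 2 or 3 (adjusted p = 0.0511 and 0.0623) and without wild-type arrays 1, 5 and 6 (-0.33, adjusted p = 0.0887). The GTPase Mtg1 (-0.17, adjusted p = 0.0321) lost its call without null array 1, 2 or 3 or wild-type array 3 or 6 (adjusted p between 0.0547 and 0.0929) and without wild-type arrays 1, 5 and 6 (adjusted p = 0.0735), and the RNA-binding protein Slirp was barely past the threshold (-0.18, adjusted p = 0.0487).

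Of 9 tested genes for the transcription and maintenance of mitochondrial DNA, 3 were higher and 3 lower (33.3% each, beside 22.9% higher and 21.2% lower among all tested genes). Tefm, the elongation factor of the mitochondrial RNA polymerase, read 9.88, 9.84, 9.98 and 9.996 in Prdm4 null, 8.93 to 9.27 (median 9.15) in Prdm4-EGFP and 9.02 to 9.20 (median 9.10) in wild-type cells, 1.76-fold the wild-type level (adjusted p = 4.26e-08). The polymerase itself, Polrmt, was 10.90, 10.93, 10.79 and 10.86 in Prdm4 null, 10.50 to 10.70 (median 10.61) in Prdm4-EGFP and 10.50 to 10.65 (median 10.62) in wild-type cells (log2 fold change 0.27, adjusted p = 0.0014). Polg, the DNA polymerase, was higher (0.33, adjusted p = 0.00703), and its accessory subunit Polg2 was lower at its brightest probe (-0.49, adjusted p = 0.000683). Over the mean of its probes Polg2 was not called (-0.21, adjusted p = 0.0758). The transcription factor Tfb2m, on chromosome 1, was lower as well (-0.58, adjusted p = 5.14e-05), as was the termination factor family member Mterf1a (-0.46, adjusted p = 6.28e-05).

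**Figure D5:**
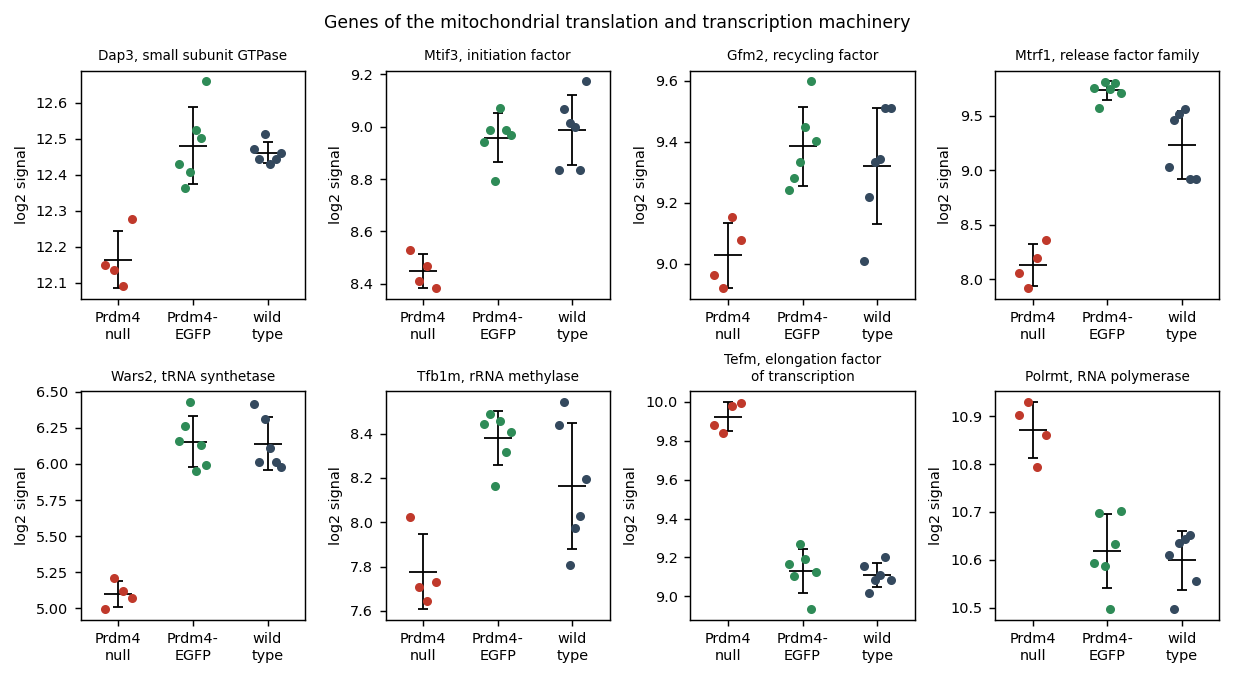
Log2 signal on every array for 8 genes that work with the mitochondrial ribosome or transcribe mitochondrial DNA, by group (points, arrays; bars, mean and SD; each panel has its own axis range). Dap3, Mtif3, Mtrf1 and Wars2 lie lower on all 4 null arrays than on any wild-type array, Gfm2 and Tfb1m overlap, and Tefm and Polrmt lie higher, at 1.76-fold for Tefm.

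Of the 7 tested nuclear regulators of mitochondrial genes, 2 were higher and 1 lower in Prdm4 null cells (28.6% and 14.3%, near the 22.9% and 21.2% of all tested genes). Nrf1, the factor that binds the NRF1 letters shown in the Mrpl10, Mrpl33 and Mrpl9 promoters, was 9.28, 9.14, 9.25 and 9.12 in Prdm4 null, 8.74 to 8.98 (median 8.84) in Prdm4-EGFP and 8.85 to 9.07 (median 8.95) in wild-type cells (log2 fold change 0.23, adjusted p = 0.0103). Of those genes, Mrpl10 and Mrpl33 were lower and Mrpl9 higher. Pprc1, a coactivator of the PGC-1 family, was also higher, with 11.29, 11.32, 11.31 and 11.31 in Prdm4 null against 10.68 to 10.97 (median 10.90) in wild-type cells (0.46, adjusted p = 1.65e-05), while its relative Ppargc1b was lower (-0.52, adjusted p = 0.00135). Gabpa and Gabpb1, the subunits of GABP, were not called, with log2 fold changes of 0.05 and -0.05.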

How the data were processed

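Total RNA of 16 ES cell cultures (4 Prdm4 null, 6 Prdm4-EGFP and 6 wild type) was hybridized to Illumina Mouse WG-6 v2 BeadChips. The deposited scanner table gave, per the file headers, 1 intensity per probe and array, not normalized and not background subtracted, with the detection p-value that the authors' scanner software computed against negative control beads. The authors also deposited a table of normalized values (an intensity on a linear scale, rank-invariant normalization by their methods). On each array it equalled the scanner signal minus a constant (54.2 to 68.2) times a scale (0.763 to 1.22). Between 25.4% and 36.6% of its values were below 0 and the column medians were 6.88 to 9.67. It served as an alternative, with values under 16 set to 16. The software version and the chip that held each array are not given in the sources used here, so a chip effect was not tested.

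Intensities were corrected and normalized with the neqc function of limma 3.58.1 in R 4.3.3 (normexp with detection p-values, offset 16, quantile normalization, log2). Probes were kept if at least 4 of 16 arrays detected them (detection p-value below 0.01) and were fitted with lmFit and eBayes on the means of the 3 groups, and p was adjusted by Benjamini-Hochberg over all tested probes with a threshold of 0.05. A gene was represented by its probe with the highest mean, and levels were not compared between probes. "Higher" and "lower" mean past this threshold. Where a probe was not detected on a whole group, the fold is a bound, set from the lowest signal of a detected probe per array. Gene symbols came from the platform annotation, of which 34885 probes had 1 symbol and 18 several, and 34807 of those with 1 symbol matched RefSeq by gene ID. The labels call the arrays of a group separate clones. The p-values measure the spread between these.

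The members and all gene lists were chosen with earlier results of these data known. Genes were named by rule: Prdm4, the 10 largest rises and falls among called members per comparison, the tested members on chromosomes 1 and 14, members with opposite probe calls, members below background in a group, and up to 3 rises and 3 falls of each other list. Genes named beyond this were chosen after their values were seen. Group ranges that do not touch are called not overlapping. Alternatives changed the normalization, background, detection filter, probe choice, test, samples, threshold and a block for the array number, and left out arrays. Fitting was tested on simulated data. Array numbers were not used as pairs, because the labels tie them to nothing shared. The correlation of deviations was over 0.1 in 7 of 14 same-numbered and 11 of 70 differently numbered pairs. What same-numbered arrays may share was not tested, and the number as a block was run as an alternative.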

Additional observations from a re-analysis of the deposited data

Results flagged for a closer look

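In 11 of the 171 groups of 4 to 6 arrays examined for the named genes, 1 array stood apart from the rest of its group by Dixon's test at the 95% level. Chance alone flags about 1 in 20 groups. Among the ribosomal proteins, Mrps21 read 9.983 on Prdm4 null array 4 and 9.774 to 9.784 on the other null arrays. Mrps18a read 9.862 on null array 2 and 9.978 to 9.990 on the others. Mrpl30 read 10.971 on Prdm4-EGFP array 2 and 11.181 to 11.245 on the others of that group. Mrps30 read 11.569 on Prdm4-EGFP array 1 against 11.402 to 11.452, and Mrps18b read 11.805 on Prdm4-EGFP array 3 against 11.902 to 11.937. Mrpl57, which was near background, read 5.969 on wild-type array 4 and 5.318 to 5.546 on the other wild-type arrays.

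For other genes, Prdm4 read 10.071 on Prdm4-EGFP array 3 and 10.243 to 10.337 on the others of that group, and the RNA processing enzyme Elac2 read 8.498 there against 8.647 to 8.726. Ppargc1b read 6.556 on Prdm4-EGFP array 1 against 6.922 to 7.140. The mitochondrial helicase Twnk read 8.266 on null array 4 against 8.381 to 8.398. Lrpprc, which stabilizes mitochondrial mRNAs, read 9.358 on wild-type array 3 against 9.057 to 9.141. Prdm4-EGFP array 3 appeared in 3 of these groups.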

How the results depend on the processing

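In Prdm4 null against wild-type cells, the deposited values gave 3 members higher and 38 lower (median log2 fold change -0.22), with 16.1% of all genes higher and 27.2% lower. Against Prdm4-EGFP cells they gave 5 and 39 (-0.23), with 18.8% and 29.6% of all genes. Median scaling gave medians of -0.15 against wild type and -0.17 against Prdm4-EGFP cells. The mean of a gene's probes gave a median of -0.12 and turned Mrpl38 to -0.0075 (both against wild type). With array numbers 1 and 2 only, 1 member was higher and 7 of 73 lower (median -0.16) against wild type, with 9.95% and 10.2% of all genes, and 2 and 7 (-0.10) against Prdm4-EGFP cells, with 9.88% and 10.6%. With numbers 3 and above only, 5 and 12 were called against wild type (13.3% and 14.1% of all genes) and 6 and 14 against Prdm4-EGFP cells (17.3% and 16.7%). Without wild-type arrays 1, 5 and 6, 14 were lower than wild type, the same share as that of all genes (19.2%). The members' median in that fit was -0.091, against 0.017 over all genes. At an adjusted p under 0.001, 3 and 9 were called against wild type (9.3% and 10.2% of all genes) and 4 and 12 against Prdm4-EGFP cells (11.6% and 12%). Against wild type the lower count of the 73 members stood near or below the share of all genes in several settings. Among them were numbers 1 and 2 only, numbers 3 and above only, and the fit without wild-type arrays 1, 5 and 6. The adjusted p under 0.001 was another. The median of Prdm4-EGFP against wild-type cells was -0.033 with numbers 1 and 2 only, 0.018 with numbers 3 and above only and 0.032 without wild-type arrays 1, 5 and 6. These fits hold fewer arrays, but the cause of the other shifts was not tested.

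Leaving out each array in turn gave 7 to 10 higher and 19 to 25 lower (median -0.13 to -0.078) in Prdm4 null against wild-type cells, 0 to 1 and 0 to 1 (-0.016 to 0.022) in Prdm4-EGFP against wild-type cells, and 9 to 11 and 18 to 28 (-0.13 to -0.091) in Prdm4 null against Prdm4-EGFP cells. Under every alternative run, 5 falls against wild type kept their call (Mrpl30, Mrpl33, Mrps9, Mrps15 and Mrps21) and no rise did. The labels number the arrays of every group. Same-numbered arrays had a mean correlation of deviations of 0.103 (14 pairs, 7 over 0.1). Differently numbered arrays had one of -0.0203 (70 pairs, 11 over 0.1), and 5 of 16 arrays matched best with their own number. With the number as a replicate block, 9 members were higher and 21 lower in Prdm4 null against wild-type cells (median -0.11), 0 and 0 (-0.0021) in Prdm4-EGFP against wild-type cells, and 10 and 22 (-0.11) in Prdm4 null against Prdm4-EGFP cells.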
